A study of Homo sapiens with 12 samples.

Results

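Genes of the transforming growth factor beta (TGF-beta) pathway are described here, namely the ligands TGFB1, TGFB2 and TGFB3, the receptors TGFBR1 and TGFBR2, the signal carriers SMAD2, SMAD3 and SMAD4, and the inhibitors SMAD7 and SKIL. They were taken by symbol, without regard to their values, and all 10 members were found among the 56832 gene symbols of the count tables. All 10 passed the filter on low counts. RNA sequencing counted total RNA of SW1736, an established cell line that was derived from an anaplastic thyroid carcinoma. The cells had been transduced with the empty vector pCDH-EV (EV cells) or with pCDH-TRB, which carries thyroid hormone receptor beta (TRB cells). All of them were first kept for 24 h in phenol-red free medium with charcoal-stripped serum, which holds little hormone, and then received 10 nM of the thyroid hormone T3 or its NaOH vehicle for 24 h. The 4 groups were EV vehicle, EV T3, TRB vehicle and TRB T3, with 3 libraries each. The sources used here do not say which promoter drives the receptor, whether the lines are clones, or whether replicates are separate cultures, so p-values measure the spread between these libraries, which may be technical.

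TGF-beta ligands are secreted bound to a latency peptide and act once they are released from it. An active dimer binds the type II receptor TGFBR2, which then phosphorylates the type I receptor TGFBR1. TGFBR1 in turn phosphorylates SMAD2 and SMAD3, which join SMAD4 and enter the nucleus to control target genes. SMAD7 blocks the receptor and SKIL blocks the SMAD complex on chromatin, and both are classical feedback genes of the pathway. In the normal thyroid TGF-beta restrains follicular cell growth, and in thyroid carcinoma it is studied for its part in epithelial to mesenchymal transition. Thyroid hormone receptor beta is a nuclear receptor that binds DNA and changes transcription when it holds T3.

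Counts within genes totalled 3819306 to 13086717 per library, and 17833 to 22881 genes had a count. THRB, the gene of the supplied receptor, checked the labels: it stood at 12.3 to 18.3 CPM (read counts on a common library scale after edgeR's TMM factors) in the 6 EV libraries, at 79.8 to 80.4 CPM in TRB vehicle and at 190 to 322 CPM in TRB T3. THRB itself thus rose with T3 in TRB cells, by 1.75 on the log2 scale (SE 0.222, 3.37-fold, edgeR adjusted p 0.000434) with 12 libraries. With 11 libraries the rise was 3.99-fold (adjusted p 2.1e-07). Every value for T3 in TRB cells, and every difference in T3 response, goes with this change in the receptor's transcript, whose part in them was not tested. TRB T3 replicate 2 stood apart from replicates 1 and 3. Of all 12 libraries it had the fewest genes with a count (17833). It also had the largest share of reads outside any gene (24.4% of its file) and the smallest of non-unique alignments (19.0%). The biological coefficient of variation of the TRB T3 group was 0.619 with it and 0.0576 without it, and its log2 difference from the other replicates had a Spearman correlation of -0.89 with gene GC content across 12130 genes. The members' changes are therefore given with all 12 libraries and with the 11 others. The coefficient was 0.218 in EV T3, against 0.0923 and 0.0802 in the vehicle groups, and EV T3 replicate 3 was both the shallowest library and the one with most non-unique alignments (92.0% of its file). All EV T3 libraries had larger non-unique shares (77.7%, 69.6% and 92.0%) than any other library, and EV vehicle had 66.3%, 33.1% and 37.9%. What part this has in the T3 values of EV cells was not tested. The defining thyroid genes FOXE1 and TSHR had 0 counts in every library, TG had at most 5 and SLC5A5 at most 1, while PAX8 had 4 to 81. Epithelial EPCAM stood at 317 to 1100 CPM and CDH1 at 135 to 242 CPM. The mesenchymal markers VIM and CDH2 had at most 18 and 0 counts, and the leukocyte genes CD3E and PTPRC at most 2, but CD14 had 1 to 123 counts and LYZ stood at 778 to 1589 CPM. Endothelial and fibroblast markers had at most 3 counts. Anaplastic thyroid carcinoma usually expresses vimentin, so the near absence of VIM beside high EPCAM and CDH1 goes against what the label leads one to look for, and the identity of the line was not tested.

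Across all genes, replicate 2 of TRB T3 was high for genes of low GC content and low for genes of high GC content, and the members followed their own GC content. SKIL, at 33.4% GC, was 1.86 higher on the log2 scale in that library than in the mean of replicates 1 and 3, and TGFBR1, at 39.0%, was 1.51 higher. TGFB1, at 63.5%, differed by -4.40 and SMAD7, at 58.7%, by -0.97. The members nearest the median GC of 48.3% differed least: TGFBR2 by 0.11, TGFB3 by -0.35 and SMAD3 by -0.45. What part GC content has in the fitted changes was not tested beyond the fits with and without this library and with GC offsets.

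**Figure D1:**
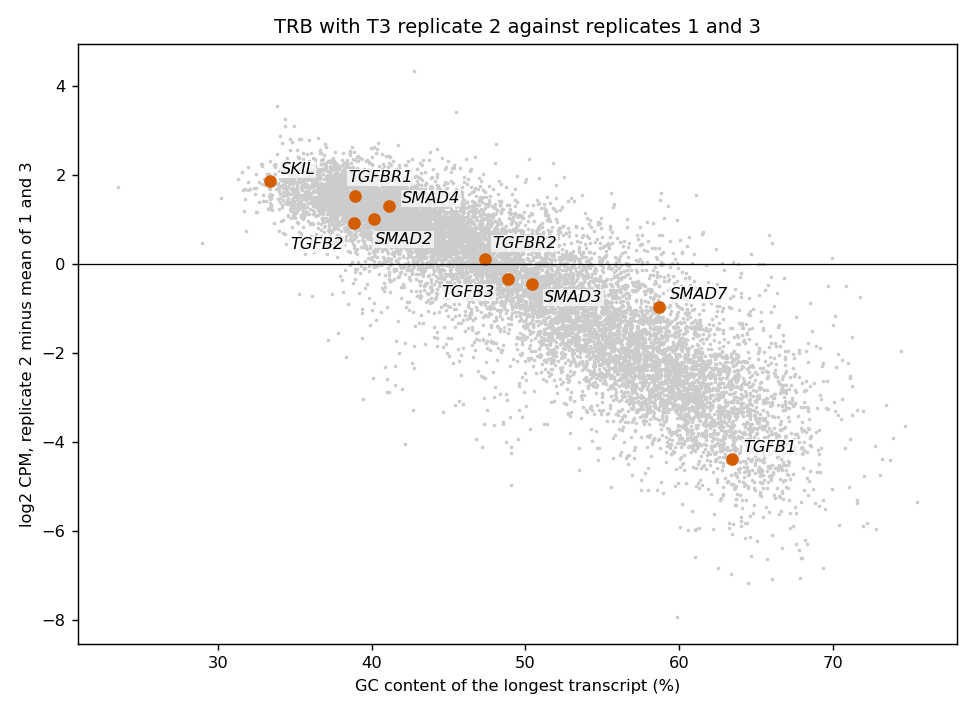
Each grey point is 1 of 12130 genes, placed by the GC content of its longest transcript (percent, x axis) and by the difference in log2 CPM between TRB T3 replicate 2 and the mean of replicates 1 and 3 (y axis). The 10 members are orange, with SKIL at 1.86, TGFB1 at -4.40 and TGFB3, SMAD3 and TGFBR2 close to 0.

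TGFB3, the ligand best known for its role in palate and heart development, had the clearest response. It lies on chromosome 14 (hg38, chr14:75958099-75982991, minus strand). RefSeq places its transcription starts at 2 positions, and the 250 bases before each are printed below, since TGFB3 was the member with the largest fitted change under T3. Capitals mark the SMAD box CAGAC (or its reverse complement GTCTG) in the upstream window, chr14:75983012-75983261, and the TATA box TATAAA in the downstream window, chr14:75981996-75982245. Both are on the minus strand of GRCh38.p14 and read 5′ to 3′ toward the start.
TGFB3 upstream start: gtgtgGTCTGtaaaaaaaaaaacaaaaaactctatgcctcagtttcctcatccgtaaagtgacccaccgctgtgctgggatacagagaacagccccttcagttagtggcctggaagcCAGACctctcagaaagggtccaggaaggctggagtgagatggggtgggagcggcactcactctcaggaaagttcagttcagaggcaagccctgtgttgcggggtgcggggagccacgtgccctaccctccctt
TGFB3 downstream start: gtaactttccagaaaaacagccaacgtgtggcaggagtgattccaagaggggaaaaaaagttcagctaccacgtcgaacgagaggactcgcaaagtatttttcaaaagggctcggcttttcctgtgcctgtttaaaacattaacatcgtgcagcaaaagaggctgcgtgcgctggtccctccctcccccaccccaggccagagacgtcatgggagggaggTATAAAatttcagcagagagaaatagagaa
The upstream window held the SMAD box at 133 to 129 bases before the start and its reverse complement at 245 to 241. The downstream window held TATAAA at 30 to 25 bases before the start. These matches describe letters in the sequence and are not measured binding sites.

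In EV vehicle TGFB3 stood at 0.217, 0.817 and 1.65 CPM (1, 10 and 18 counts). EV T3 gave 1.7, 1.37 and 1.01 CPM (11, 13 and 4 counts) and TRB vehicle 1.83, 1.90 and 1.59 CPM (18, 22 and 19 counts). TRB T3 gave 11, 8.63 and 11.1 CPM (146, 48 and 89 counts). The 3 TRB T3 libraries, replicate 2 included, lay above all 9 others, and the other groups overlapped one another. The order of the group means was EV vehicle at 0.896 ± 0.722 CPM (SD, n = 3), EV T3 at 1.36 ± 0.343, TRB vehicle at 1.77 ± 0.158 and TRB T3 at 10.2 ± 1.39. Of these neighbours, only TRB vehicle and TRB T3 differed beyond their spread.

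With T3, TGFB3 rose in TRB cells by 2.53 on the log2 scale (SE 0.360, 5.76-fold, edgeR adjusted p 0.000911) with 12 libraries and by 2.68 (SE 0.272, 6.40-fold, adjusted p 8.71e-06) with 11. In bulk RNA, more cells with the transcript and more transcript per cell cannot be told apart. It passed in all 21 alternative settings, with log2 changes of 2.44 to 2.68. In EV cells the change was 0.48 (95% interval -0.52 to 1.47, adjusted p 0.935) with 12 libraries and 0.45 (interval -0.46 to 1.37) with 11. The difference between those responses was 2.05 with 12 libraries (SE 0.577, adjusted p 0.1, unadjusted p 0.00473), which did not pass. With 11 libraries it was 2.23 (SE 0.514, adjusted p 0.0122). Without EV vehicle replicate 3 it was 1.34 (adjusted p 0.315) and the EV response 1.21 (adjusted p 0.969), with EV vehicle replicate 1 resting on 1 count. Without that replicate 1 the difference was 2.32 (adjusted p 0.0481). In T3-treated cells TGFB3 was higher with the receptor by 2.87 (SE 0.392, adjusted p 0.00177) and 3.02 (SE 0.314, adjusted p 2.6e-05). Without hormone the receptor made a difference of 0.82 (interval -0.09 to 1.73, adjusted p 1) and 0.79 (interval -0.00173 to 1.58, adjusted p 0.399), which did not pass. GENCODE places an antisense gene, TGFB3-AS1, on exon bases of TGFB3. Strand use in counting is not given in the sources used here, so reads of both cannot be told apart.

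**Figure D2:**
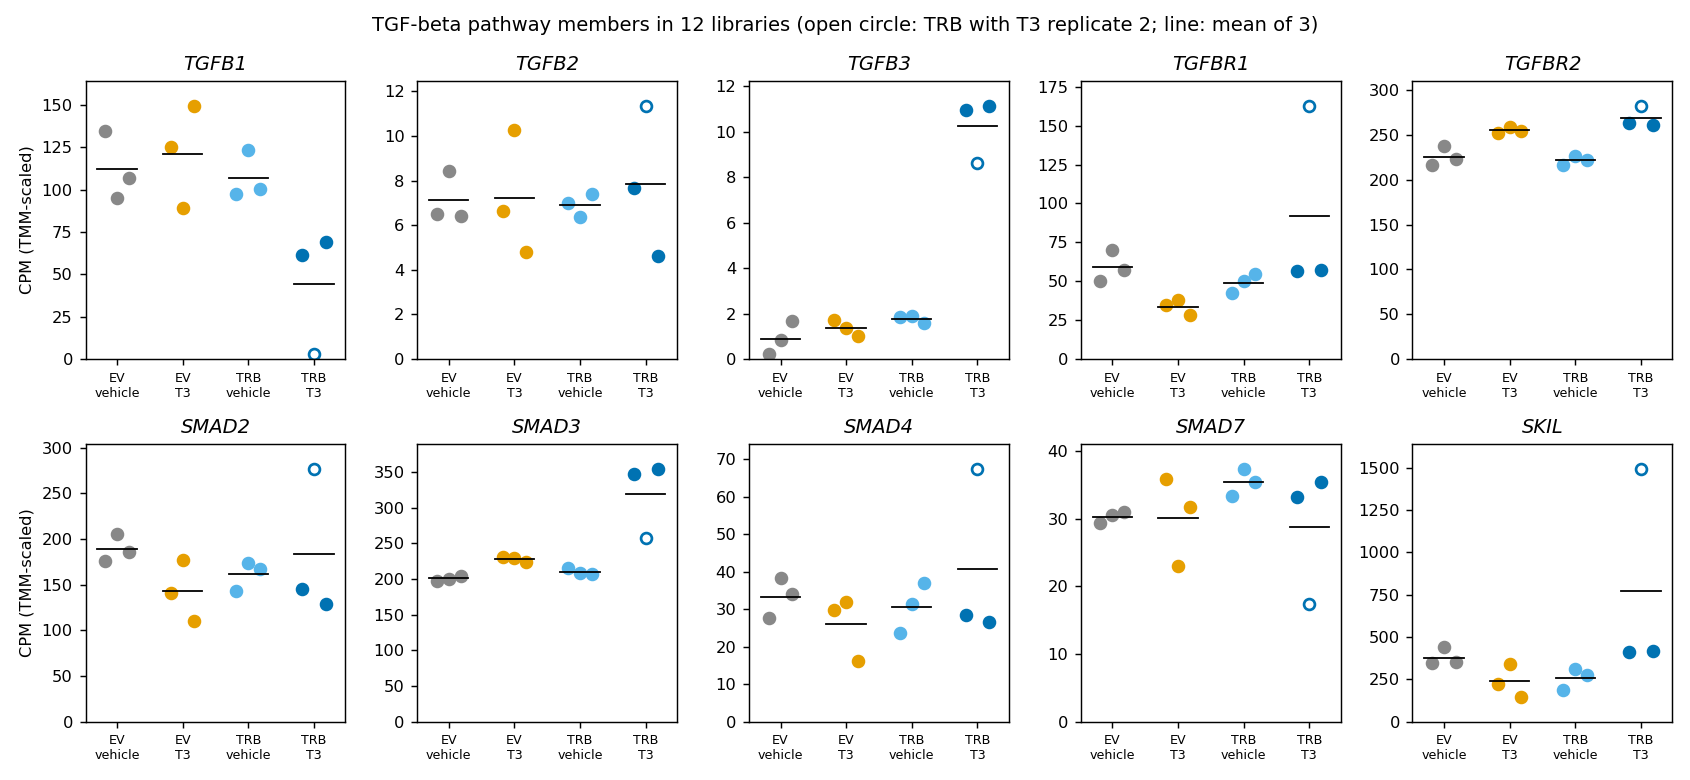
Each panel plots 1 member's CPM (TMM-scaled, linear y axis from 0) in the 12 libraries, grouped by vector and treatment, with the group mean of 3 as a line and TRB T3 replicate 2 as an open circle. All TRB T3 points of TGFB3 (8.63 to 11.1 CPM) and SMAD3 (258 to 354 CPM) lie above every other library, while for TGFB1 and SKIL the open circle lies far from the closed ones.

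TGFB1, the most widely expressed ligand, was the main TGF-beta transcript of these cells. It lies on chromosome 19 (chr19:41301587-41353911, minus strand). EV vehicle held 134, 95 and 107 CPM, EV T3 125, 89.3 and 149 CPM, and TRB vehicle 97.4, 123 and 100.2 CPM. TRB T3 gave 61.3, 2.88 and 69.2 CPM. All 3 lay below the other 9 libraries, and replicate 2 lay far below the rest with 16 counts. The fit of 12 libraries gave a change with T3 in TRB cells of -1.26 (SE 0.724, adjusted p 0.258), which did not pass, and TGFB1 fell by 0.67 (SE 0.204, adjusted p 0.0234) in the fit of 11. In EV cells the values were 0.11 (interval -1.46 to 1.69) and 0.11 (interval -0.29 to 0.50), neither of which passed. With T3, TRB against EV cells gave -1.44 (adjusted p 0.234) with 12 libraries and -0.82 (SE 0.206, adjusted p 0.0137) with 11. The interaction was -0.77 with 11 libraries and did not pass (adjusted p 0.0737). With GC offsets, which take a smooth GC trend out of each library, T3 in TRB cells gave -0.95 (adjusted p 0.0213) on all 12 libraries. Exons of TGFB1 share bases with HNRNPUL1 on the opposite strand, which had 1994 to 8982 counts, so part of the reads of either may be assigned uncertainly.

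TGFB2, the third ligand, was low and even. It lies on chromosome 1 (chr1:218346235-218444619, plus strand). Group means were 7.12 ± 1.12 CPM in EV vehicle, 7.23 ± 2.77 in EV T3, 6.93 ± 0.511 in TRB vehicle and 7.87 ± 3.36 in TRB T3 (SD, n = 3). The 12 libraries ran from 4.62 to 11.3 CPM and the groups overlapped. Its changes in the 4 pairwise comparisons ran from -0.05 to 0.17 with 12 libraries and none passed. For T3 in TRB cells the 95% interval was -0.57 to 0.91 with 12 libraries and -0.68 to 0.51 with 11.

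Scaled to CPM per kilobase of the longest protein-coding transcript in the consensus set, TGFB1 made up 92.6% to 97.5% of the summed level of the 3 ligands in the 9 libraries outside TRB T3. TGFB3 made up 0.172% to 1.95% there. In TRB T3 the share of TGFB3 was 15.5% in replicate 1, 14.5% in replicate 3 and 51.1% in replicate 2. That of TGFB1 was 79.1%, 82.4% and 15.5% in the same order. TGFB1 thus remained the largest ligand transcript in replicates 1 and 3, and not in replicate 2, the library where this GC-rich gene was low.

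**Figure D3:**
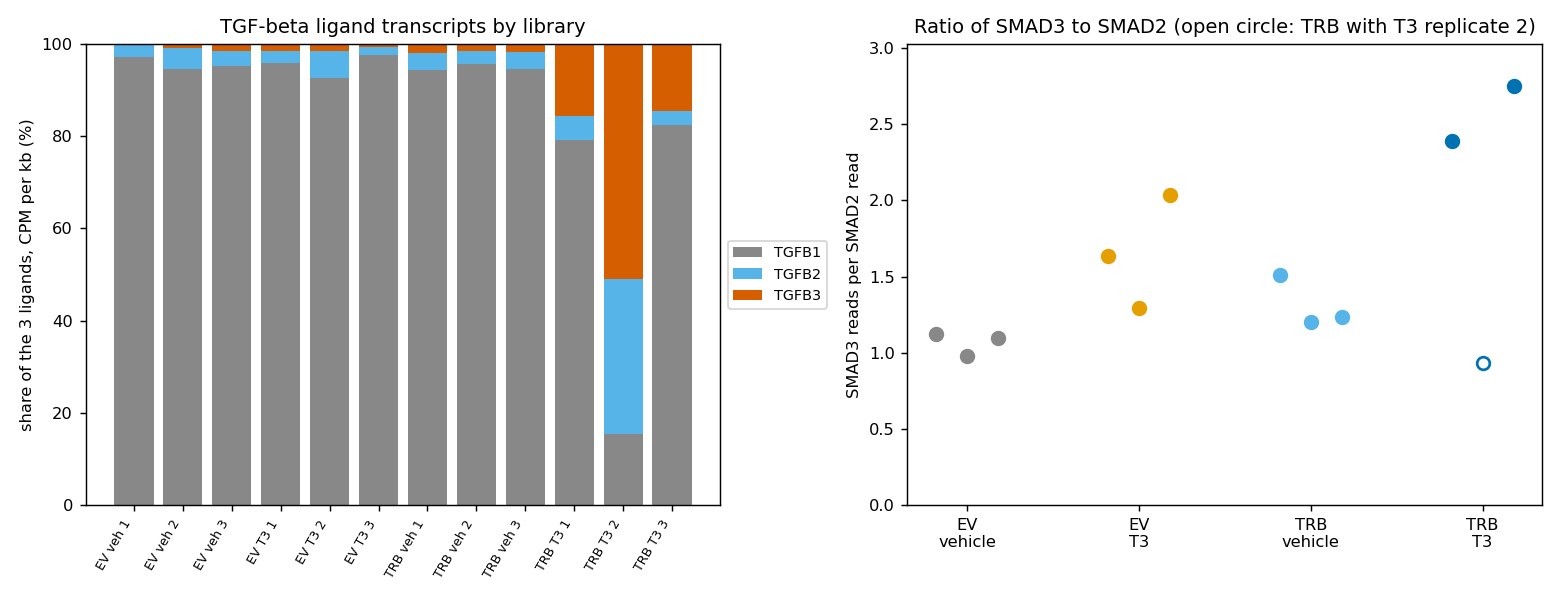
The left panel stacks, for each of the 12 libraries, the share of each ligand in their summed CPM per kilobase (percent), and the right panel plots SMAD3 reads per SMAD2 read for each library by group, with TRB T3 replicate 2 open. TGFB3 takes 15.5%, 51.1% and 14.5% in the TRB T3 libraries against at most 1.95% elsewhere, and the SMAD ratio is 2.39 and 2.75 in TRB T3 replicates 1 and 3 and 0.931 in replicate 2.

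Among the receptors, TGFBR1 was lower with T3 in EV cells and not in TRB cells, in the fit without replicate 2. TGFBR1, the type I receptor kinase, lies on chromosome 9 (chr9:99104038-99154192, plus strand). EV vehicle held 50.2, 69.9 and 57.4 CPM and EV T3 34.6, 38.2 and 28.3 CPM. TRB vehicle held 42.2, 50.4 and 54.7 CPM and TRB T3 56.3, 162 and 57.2 CPM. The EV T3 libraries lay below all 9 others, the vehicle groups overlapped, and TRB T3 replicate 2 was the highest of all. In EV cells T3 gave -0.81 (SE 0.376, adjusted p 0.837) with 12 libraries. With 11 TGFBR1 fell by 0.80 (SE 0.153, 0.575-fold, adjusted p 0.0101), although the library left out belongs to neither group. The call was lost when only EV vehicle and EV T3 were fitted (-0.80, adjusted p 0.0643), and 3 of 20 alternative settings passed in all. In TRB cells the change was 0.90 (SE 0.374, adjusted p 0.135) with 12 libraries and 0.25 (interval -0.10 to 0.61, adjusted p 0.264) with 11. The difference between the responses was 1.71 (adjusted p 0.131) with 12 libraries, which did not pass, and 1.05 (SE 0.223, adjusted p 0.00758) with 11. With T3, TGFBR1 was higher in TRB than in EV cells by 1.44 (SE 0.380, adjusted p 0.0479) and by 0.79 (SE 0.167, adjusted p 0.00488). The 12-library call was lost when only EV T3 and TRB T3 were fitted (adjusted p 0.368) and on leaving out any one library of the other 3 groups (adjusted p 0.0624 to 0.157). With GC offsets on 11 libraries the T3 value in EV cells was -0.50 (adjusted p 0.00202), and with offsets on 12 it was -0.45 (adjusted p 0.137). The offsets gave 0.58 (adjusted p 0.0107) on 12 libraries for TRB against EV cells with T3, against 1.44 without them. For the difference between the responses they gave 0.59 (adjusted p 0.0699) on 12 libraries and 0.72 (adjusted p 0.000648) on 11.

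TGFBR2, the type II receptor that binds the ligand first, stood at a high level in every library. It lies on chromosome 3 (chr3:30606502-30694142, plus strand). EV vehicle held 216, 238 and 224 CPM and EV T3 252, 259 and 255 CPM. TRB vehicle held 216, 226 and 222 CPM and TRB T3 263, 282 and 261 CPM. All 6 T3 libraries lay above all 6 vehicle libraries, in steps smaller than for the other members that passed. With T3 in TRB cells the change was 0.28 (SE 0.122, adjusted p 0.154) with 12 libraries, and TGFBR2 rose by 0.29 (SE 0.0874, adjusted p 0.0222) with 11. In EV cells it was 0.18 (adjusted p 0.935) and 0.18 (SE 0.0792, adjusted p 0.166), which did not pass. The interaction was 0.10 (interval -0.28 to 0.48) with 12 libraries. Per kilobase, TGFBR2 exceeded TGFBR1 4.79- to 6.07-fold in EV vehicle, 9.54- to 12.7-fold in EV T3 and 5.72- to 7.23-fold in TRB vehicle. In TRB T3 the ratio was 6.58, 2.45 and 6.43 in replicates 1, 2 and 3.

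SMAD3, one of the receptor-activated SMADs and the one that binds DNA directly, rose with T3 in TRB cells. It lies on chromosome 15 (chr15:67063763-67195195, plus strand). The 250 bases before its most upstream RefSeq start, chr15:67065352-67065601 (GRCh38.p14, plus strand), are printed because SMAD3 was the other member that passed in both fits of that comparison. No letters are in capitals, as none of the searched motifs occurred in it, and 80.8% of its bases were G or C.
SMAD3 most upstream start: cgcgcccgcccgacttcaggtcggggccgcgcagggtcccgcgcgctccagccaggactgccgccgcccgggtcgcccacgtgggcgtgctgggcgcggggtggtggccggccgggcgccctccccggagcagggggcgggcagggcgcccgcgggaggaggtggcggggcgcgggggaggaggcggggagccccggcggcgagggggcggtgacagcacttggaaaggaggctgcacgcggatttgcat
EV vehicle held 198, 200.3 and 204 CPM and EV T3 231, 229 and 224 CPM. TRB vehicle held 216, 208 and 206 CPM and TRB T3 348, 258 and 354 CPM. The TRB T3 libraries lay above all others, and the EV T3 libraries lay between them and the 6 vehicle libraries. T3 in TRB cells gave a rise of 0.61 (SE 0.148, 1.52-fold, adjusted p 0.0195) with 12 libraries and of 0.79 (SE 0.0846, 1.73-fold, adjusted p 1.4e-05) with 11. The 12-library call was lost when only TRB vehicle and TRB T3 were fitted (adjusted p 0.222), without a count filter (adjusted p 0.168) and on leaving out any one TRB vehicle library or TRB T3 replicate 1 or 3 (adjusted p 0.0552 to 0.0916). In EV cells the change was 0.18 (SE 0.148, adjusted p 0.935) and 0.18 (SE 0.0774, adjusted p 0.147), which did not pass. The interaction was 0.42 (adjusted p 0.274) with 12 libraries, which did not pass, and 0.60 (SE 0.115, adjusted p 0.00418) with 11. With T3, TRB against EV cells gave 0.49 (adjusted p 0.0785) with 12 libraries and 0.68 (SE 0.0850, adjusted p 0.000114) with 11.

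SMAD2, the other receptor-activated SMAD, and SMAD4, the common partner, passed in none of the 5 comparisons in either fit. SMAD2 (chr18:47808957-47931146, minus strand) had group means of 189 ± 14.9 CPM in EV vehicle, 143 ± 33.8 in EV T3, 161 ± 16.1 in TRB vehicle and 184 ± 80.9 in TRB T3 (SD, n = 3). TRB T3 replicate 2 held 277 CPM, against 146 and 129 CPM in replicates 1 and 3. The 11-library log2 values of SMAD2 with T3 were -0.39 in EV cells (interval -0.73 to -0.05, adjusted p 0.129) and -0.18 in TRB cells (interval -0.56 to 0.19). With GC offsets on 11 libraries SMAD2 passed in TRB cells, lower (-0.23, adjusted p 0.00794). SMAD4 (chr18:51028394-51085045, plus strand) ran from 16.2 to 38.4 CPM in 11 libraries and stood at 67.5 CPM in replicate 2. Its 11-library values were -0.33 (interval -0.83 to 0.17) in EV cells and -0.11 (interval -0.65 to 0.43) in TRB cells. With 12 libraries the T3 values in EV cells were -0.40 for SMAD2 and -0.35 for SMAD4, and without EV T3 replicate 3 they were -0.21 and -0.08. Annotated isoforms of SMAD2 differ widely in length, so levels of the SMADs were not compared per length.

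Reads of SMAD3 per read of SMAD2 compare these genes within a library, on a scale that corrects neither for length nor for GC content. SMAD2 has 40.2% GC and SMAD3 50.4%. In TRB T3 replicate 2 they differed from replicates 1 and 3 by 1.01 and -0.45 on the log2 scale. The part of GC content in the ratio was not tested. EV vehicle gave 1.12, 0.976 and 1.1, TRB vehicle 1.51, 1.20 and 1.23, and EV T3 1.63, 1.29 and 2.04. Within EV T3 SMAD3 ran from 224 to 231 CPM and SMAD2 from 110 to 177 CPM. TRB T3 gave 2.39, 0.931 and 2.75, so replicates 1 and 3 were above all other libraries and replicate 2 was below them all.

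SMAD7, the inhibitory SMAD that takes TGFBR1 to degradation, passed in no comparison. It lies at chr18:48919853-48952052 (minus strand). EV vehicle held 29.3, 30.6 and 31.0 CPM, EV T3 35.8, 22.9 and 31.6 CPM, TRB vehicle 33.3, 37.3 and 35.4 CPM, and TRB T3 33.2, 17.4 and 35.4 CPM. The groups overlapped, except that all TRB vehicle libraries were above all EV vehicle libraries (0.22, interval -0.35 to 0.80, adjusted p 1). With T3 in TRB cells the 11-library change was 0.00 (interval -0.33 to 0.33), and in EV cells -0.02 (interval -0.33 to 0.29).

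SKIL, also called SnoN, a repressor that holds SMAD complexes inactive, differed between the vectors in its T3 response in the fit of 11 libraries. It lies on chromosome 3 (chr3:170357678-170396835, plus strand). EV vehicle held 345, 441 and 351 CPM and EV T3 225, 343 and 146 CPM. TRB vehicle held 189, 309 and 277 CPM and TRB T3 409, 1492 and 415 CPM. Each TRB T3 library lay above the EV T3 and TRB vehicle libraries and overlapped EV vehicle, and replicate 2 lay far above all. T3 gave 1.58 (SE 0.498, adjusted p 0.0577) in TRB cells with 12 libraries and 0.72 (SE 0.283, adjusted p 0.0707) with 11, neither of which passed. In EV cells it gave -0.67 (adjusted p 0.935) and -0.66 (interval -1.22 to -0.09, adjusted p 0.126). The first of these was -0.98 without EV T3 replicate 2 and -0.38 without EV T3 replicate 3. The difference between the responses was 2.25 (SE 0.696, adjusted p 0.131) with 12 libraries, which did not pass, and 1.37 (SE 0.384, adjusted p 0.0304) with 11. With GC offsets SKIL passed in TRB cells, at 0.72 (adjusted p 0.000924) on 12 libraries and 0.83 (adjusted p 2.55e-07) on 11. The values in EV cells were then -0.07 and -0.08, and the difference between the responses passed on both, at 0.79 (adjusted p 0.0154) and 0.91 (adjusted p 1.23e-05).

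**Figure D4:**
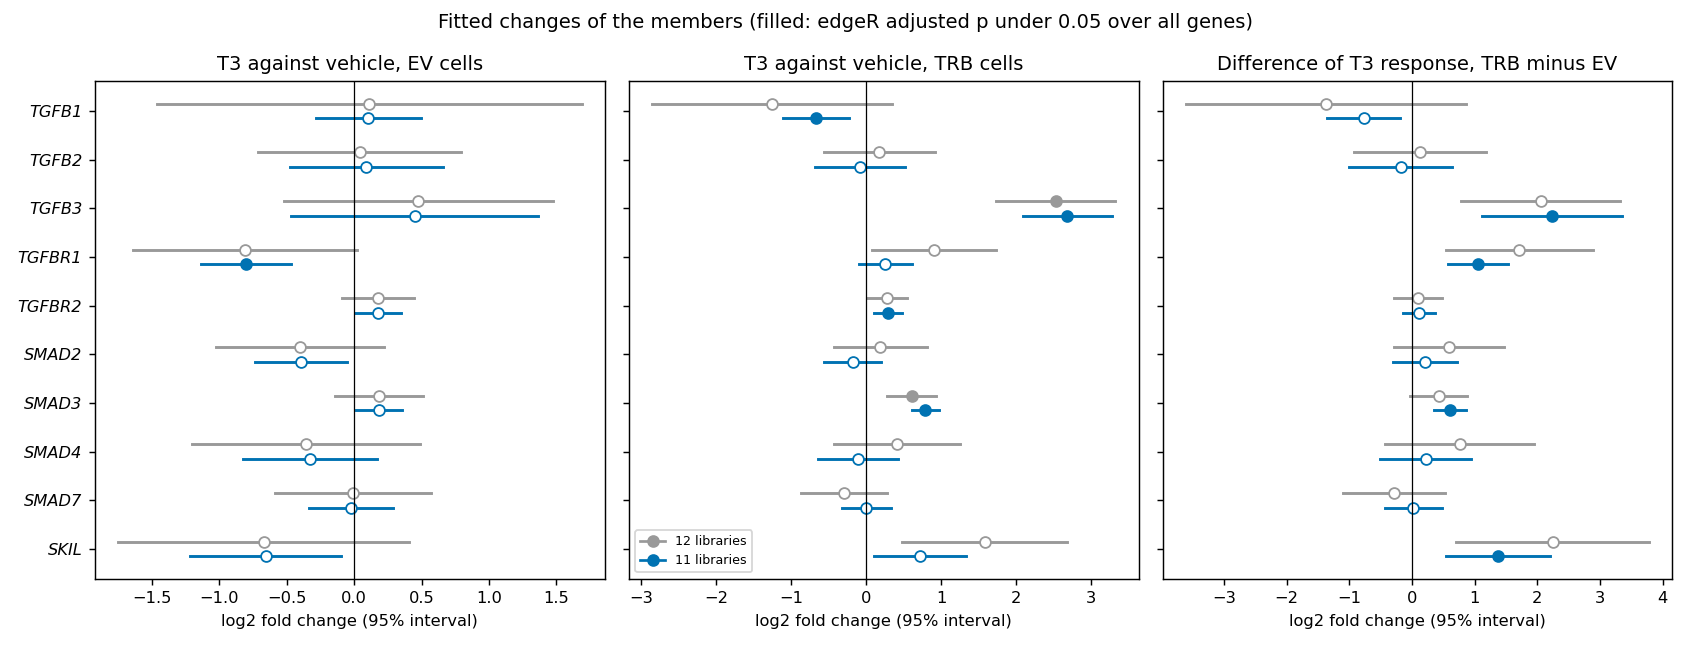
Points give the log2 fold change of each member and bars its 95% interval for T3 against vehicle in EV cells, in TRB cells, and for the difference of these responses, with 12 libraries in grey and 11 in blue, and filled points where the edgeR adjusted p was under 0.05. With 12 libraries only TGFB3 (2.53) and SMAD3 (0.61) are filled, both in TRB cells, and with 11 libraries the intervals are shorter and TGFB1 (-0.67), TGFBR1 (-0.80) and SKIL (1.37, difference) are among those filled.

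The members were then counted against all genes tested, 14431 with 12 libraries and 14825 with 11. For T3 in TRB cells, which asked what the hormone does when the receptor is supplied, 2 of 10 members passed with 12 libraries, TGFB3 and SMAD3, both higher. Of all genes 14.7% passed, 8.54% higher. With 11 libraries 4 of 10 passed, 3 higher (TGFB3, SMAD3 and TGFBR2) and 1 lower (TGFB1), beside 33.3% of all genes, 18.1% higher and 15.2% lower. These shares were near the background. The median log2 change of the members was 0.34 with 12 libraries and 0.13 with 11, beside 0.01 and -0.01 over all genes.

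For T3 in EV cells, the response without the supplied receptor, 0 of 10 members passed with 12 libraries, where 0.229% of all genes did. No member had an unadjusted p under 0.05 there, and DESeq2 called 0 as well. With 11 libraries 1 of 10 passed, TGFBR1, lower, beside 7.33% of all genes, 3.57% lower. For TRB against EV cells in vehicle, the effect of the vector without hormone, 0 of 10 passed in either fit, beside 0.0208% and 0.0742% of all genes. No member had an unadjusted p under 0.05 in either fit, and DESeq2 called 0. With the EV vehicle and TRB vehicle libraries fitted alone, SKIL passed, lower in TRB cells (-0.53, adjusted p 0.0443).

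For TRB against EV cells with T3, 2 of 10 members passed with 12 libraries (TGFB3 and TGFBR1, both higher), beside 6.68% of all genes, 4.13% higher. With 11 libraries 4 of 10 passed, 3 higher (TGFB3, TGFBR1 and SMAD3) and 1 lower (TGFB1), beside 19.7%, 11.8% higher and 7.9% lower. This comparison uses the same TRB T3 libraries as that of T3 in TRB cells. For the interaction, which tests whether the T3 response differed between vectors, 0 of 10 passed with 12 libraries, beside 2.59% of all genes. The members TGFB3, TGFBR1 and SKIL had an unadjusted p under 0.05 there, as did 20% of all genes tested. DESeq2 called 3 members and 1022 genes in all. With 11 libraries 4 of 10 passed, all positive (TGFB3, TGFBR1, SMAD3 and SKIL), beside 15.2%, 8.55% higher.

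The other genes of the pathway were taken from 5 lists of 75 genes in all. Among genes of latency and activation, which store and release the ligands, T3 in TRB cells changed 4 of 9 tested, 3 higher and 1 lower, beside 14.7% of all genes. LTBP1, a latent TGF-beta binding protein, rose by 1.06 (SE 0.163, adjusted p 0.00156), from 31.2 ± 0.854 to 64.9 ± 3.22 CPM. THBS1, thrombospondin, an activator of latent TGF-beta, rose by 0.92 (SE 0.138, adjusted p 0.0013). It also rose in EV cells, by 0.82 (SE 0.138, adjusted p 0.0487). FURIN, the protease that cuts the ligand precursors, rose by 2.26 (SE 0.681, adjusted p 0.0485), and LTBP4 fell by 2.37 (SE 0.691, adjusted p 0.043). In replicate 2 FURIN stood at 35.1 CPM and LTBP4 at 1.44 CPM, against means of 478 and 27.6 CPM in replicates 1 and 3. The median of the list was 0.90. With 11 libraries 6 of 9 passed, 5 higher and 1 lower, beside 33.3% of all genes. In EV cells 1 of 9 passed with 12 libraries and 4 of 9 with 11, all higher, beside 0.229% and 7.33% of all genes. FURIN was among the 4, at 0.69 (SE 0.152, adjusted p 0.0211).

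Of the other receptors of the family 5 of 9 tested were higher with T3 in TRB cells and none lower, with a median of 1.29, where 8.54% of all genes were higher. TGFBR3, betaglycan, a co-receptor that presents ligand to TGFBR2, rose by 2.06 (SE 0.312, adjusted p 0.00135), from 1.46 ± 0.590 to 6.16 ± 1.24 CPM. In EV cells TGFBR3 passed only with 11 libraries, at 1.14 (SE 0.252, adjusted p 0.0215). ACVR2A, an activin receptor, rose by 1.45 (SE 0.355, adjusted p 0.0197). It stood at 89.6 CPM in replicate 2 and at a mean of 35.4 CPM in replicates 1 and 3, against 19.5 CPM in TRB vehicle. BMPR1B, a bone morphogenetic protein receptor, went from a mean of 0.0560 CPM to 2.17 ± 0.690 CPM in TRB cells (adjusted p 0.00189). Its means were 0.103 CPM in EV vehicle and 0.209 CPM in EV T3, so it met the count filter only through TRB T3, where it was high. Its call, which is among those counted for this list, therefore carries little weight as a test. With 11 libraries 8 of 9 passed, 7 higher and 1 lower, beside 18.1% and 15.2% of all genes, and the median was 0.93.

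Of the other ligands and extracellular inhibitors 2 of 6 tested passed, beside 14.7% of all genes, both higher: GDF11, by 1.36 (SE 0.162, adjusted p 0.000294), and BMP2, by 1.12 (SE 0.216, adjusted p 0.00558). Of the other SMADs and intracellular regulators 2 of 15 passed, a share close to the 14.7% of all genes. TRIM33, a ubiquitin ligase that binds SMAD complexes, rose by 1.36 (SE 0.378, adjusted p 0.0347), and TGIF2, a SMAD corepressor, fell by 1.00 (SE 0.234, adjusted p 0.0157). TRIM33 stood at 547 CPM in replicate 2 and at a mean of 204 CPM in replicates 1 and 3. The medians of the lists were 0.33 and 0.35. The first was 0.95 with 11 libraries, where 5 of 7 tested passed, 4 higher and 1 lower, beside 18.1% and 15.2% of all genes. The second was -0.07 with 11 libraries, where 3 of 15 passed, 1 higher and 2 lower, a smaller share than the 33.3% of all genes. The sign of that median rested on replicate 2.

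Known target genes of the pathway moved in both directions with T3 in TRB cells. The list was not split by whether TGF-beta raises or lowers a gene, so its counts and median do not measure pathway activity. Of 16 tested, 2 were higher and 4 lower, beside 8.54% and 6.2% of all genes, with a median of -0.70. FN1, fibronectin, rose by 4.66 (SE 0.279, adjusted p 4.01e-06), from 9.57 ± 0.530 to 242 ± 83.3 CPM, and CTGF, a matricellular growth factor, by 3.17 (SE 0.211, adjusted p 7.91e-06), from 11.7 ± 1.11 to 106 ± 23.6 CPM. TGFBI, an extracellular matrix protein named for its induction by TGF-beta, fell by 1.91 (SE 0.255, adjusted p 0.000594). ID1 fell by 1.26 (adjusted p 0.0338) and ID2 by 1.05 (adjusted p 0.0123), and both encode inhibitors of differentiation factors. FN1 also rose in EV cells, by 2.26 (SE 0.253, adjusted p 0.00367), where it was the 1 of 16 target genes that passed with 12 libraries. In EV cells 5 of 18 target genes passed with 11 libraries, 2 higher and 3 lower, beside 7.33% of all genes. With 11 libraries 12 of 18 target genes passed in TRB cells, 4 higher and 8 lower, beside 33.3% of all genes. Each list gene named here as changed with T3 in TRB cells passed in the same direction with 11 libraries. FN1 and CTGF were also the 2 target genes that passed for the interaction with 12 libraries.

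**Figure D5:**
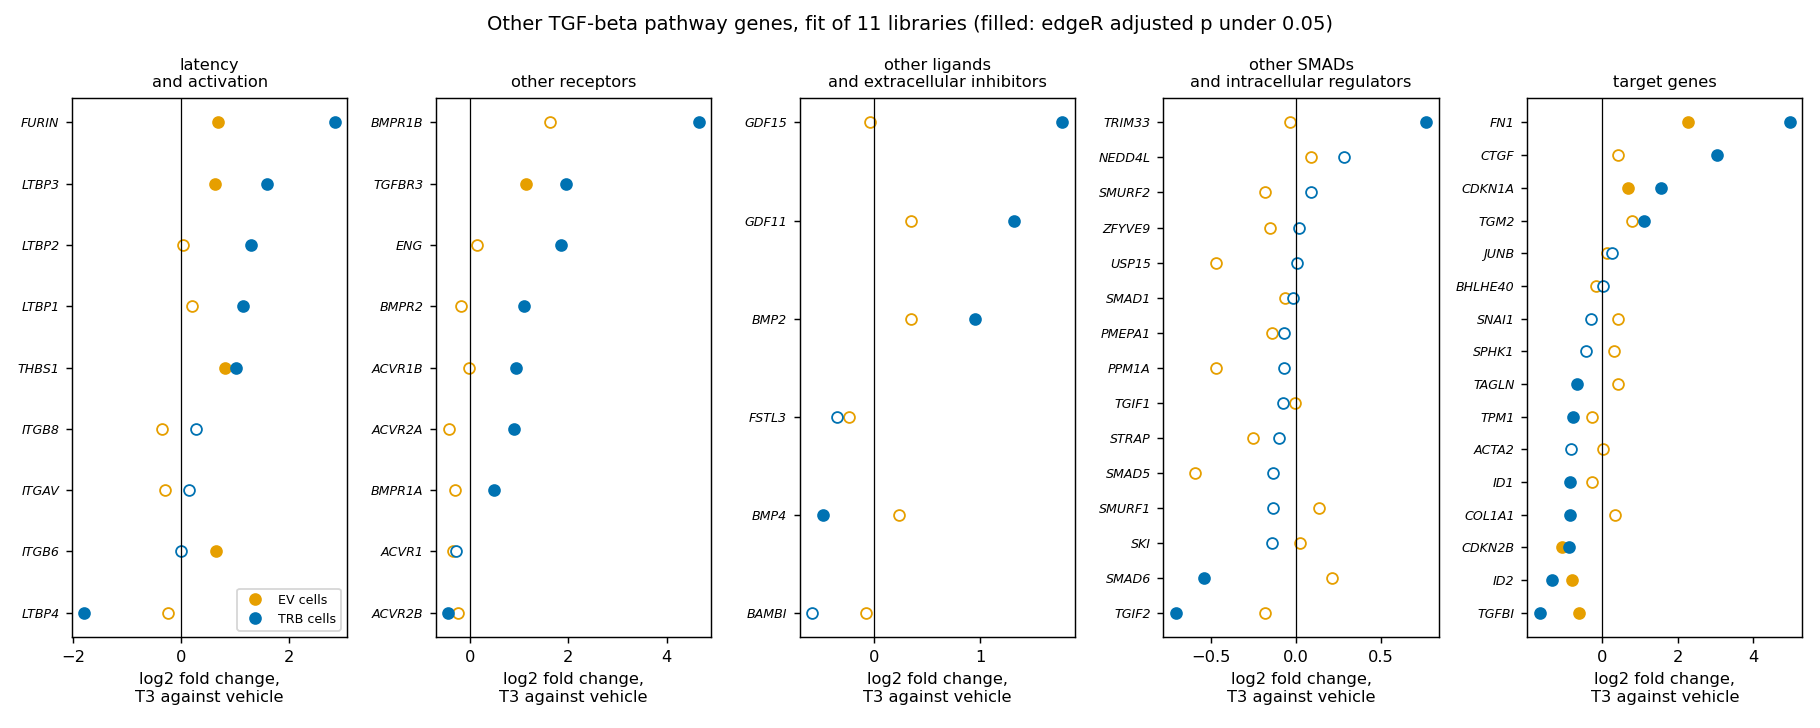
Each row is a gene of 1 of the 5 lists that was tested in both fits and each point its log2 fold change for T3 against vehicle, in EV cells (orange) and TRB cells (blue), in the fit of 11 libraries, filled where the edgeR adjusted p was under 0.05. In TRB cells 7 of 9 other receptors are filled above 0, and filled target genes lie on both sides of 0, from FN1 above to TGFBI below.

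The genes whose log2 CPM followed that of a member most closely were sought for the 3 members with the largest fitted T3 changes in TRB cells with 12 libraries (with 11, SMAD3 ranked above SKIL and TGFB1), by Pearson correlation over 11 libraries, which share groups and treatment, so that the values describe these libraries. TGFB3 was most like CENPN (r = 0.960), RIMKLA (0.958) and LTBP1 (0.955). CENPN, a kinetochore gene, went from 37.8 ± 1.05 CPM in TRB vehicle to 75.0 ± 4.6 in TRB T3 replicates 1 and 3. SKIL was most like FER (0.992), ACBD3 (0.986) and ABI2 (0.983), and TGFB1 was most like LAD1 (0.972), PES1 (0.969) and COTL1 (0.968). FER, a tyrosine kinase gene, stood at 25.6 ± 3.40 CPM in TRB vehicle and at 34.8 ± 0.793 in TRB T3 replicates 1 and 3.

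The 250 bases before the most upstream RefSeq start of each member (10 of 10 matched) were searched on both strands for 3 motifs. The thyroid hormone receptor core AGGTCA (reverse complement TGACCT) was in 0 of the 10 windows and in 12.1% of all 35116 windows. The SMAD box CAGAC was in 4 of 10, those of TGFB2, TGFB3, SMAD7 and SKIL, beside 38.0% of all. TATAAA (reverse complement TTTATA) was in 1 of 10, that of TGFB2, beside 10.7% of all. The motifs do not overlap one another. A missing match says only that these letters are not in this window.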

How the data were processed

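The authors deposited raw read counts per gene symbol for each of the 12 libraries. Per the submitters' processing notes, the tools were CASAVA 1.7, STAR 2.7, HTSeq 0.10 and DESeq2 and the build hg38; strand use and annotation are not given in the sources used here. Groups came from the labels. A deposited table of normalized values was not used.

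The closing lines for reads of no gene were left out: they held 19.0% to 92.0% of a file's total as non-unique alignments, 2.14% to 24.4% as reads outside any gene and 0.26% to 1.81% as ambiguous. In edgeR 4.0.16 (R 4.3.3), filterByExpr with a minimum count of 10 and a minimum total of 15 kept 14431 genes, and libraries were scaled by TMM. A quasi-likelihood model with 1 coefficient per group was fitted to 12 libraries, and to 11 without TRB T3 replicate 2 (14825 genes). Tests were two-sided, with Benjamini-Hochberg adjustment over all genes tested at 0.05. Standard errors come from the log2 fold change and its F statistic. The procedure was run on simulated counts with the same spread in every library, without an outlying library or a GC trend. That run does not show how the 12-library fit behaves with TRB T3 replicate 2.

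Alternatives were DESeq2 1.42.0, its size factors, no count filter, the compared groups alone, a replicate block, GC offsets (spline with 5 degrees of freedom, 12130 genes) and leaving out each library. The 11-library block and the compared groups alone without TRB T3 replicate 2 were added after seeing the data. The members, gene lists and tests were chosen with earlier results of these data known. Besides the 10 members, list genes were named by a rule: for T3 in each cell type, up to 3 most positive and 3 most negative changes of each list among genes past the threshold with 12 libraries, or, where none passed, with 11. Nearest genes by correlation needed a mean log2 CPM (prior count 2) of at least 3. Positions and lengths are from GENCODE release 29 by symbol, promoters from RefSeq (GRCh38.p14). Some listed genes are not reported here.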

Additional observations from a re-analysis of the deposited data

Results flagged for a closer look

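In the fit without TRB T3 replicate 2, the response to T3 differed between TRB and EV cells for 4 members, by edgeR's test of the interaction. The difference, TRB minus EV on the log2 scale, was 2.23 for TGFB3, 1.05 for TGFBR1, 0.60 for SMAD3 and 1.37 for SKIL. The adjusted p-values were 0.0122, 0.00758, 0.00418 and 0.0304. With all 12 libraries none of the 4 passed. In TGFB3 and SMAD3 the fitted T3 response was positive in both cell types and larger in TRB cells. In TGFBR1 and SKIL it was negative in EV cells and positive in TRB cells. The responses of TGFB3 and SMAD3 passed in TRB cells (adjusted p 8.71e-06 and 1.4e-05) and not in EV cells. Of the responses of TGFBR1 and SKIL, only that of TGFBR1 in EV cells passed. The TRB value of TGFBR1 was 0.25 (95% interval -0.10 to 0.61), and the EV value of SKIL was -0.08 with GC offsets on 11 libraries. With such offsets the difference for TGFBR1 was 0.72 on 11 libraries and 0.59 on 12, where it did not pass (adjusted p 0.0699).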

How the results depend on the processing

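Except in vehicle, how many members passed depended on TRB T3 replicate 2, and why this library differs was not tested. All groups share the estimate of spread in a fit, so leaving out this library also alters tests between other groups. The common biological coefficient of variation was 0.329 with 12 libraries and 0.131 with 11. For T3 in EV cells the count of 0 became 1 with GC offsets on 11 libraries, 2 with the replicate block on 11, and 0 to 1 on leaving out 1 library. For T3 in TRB cells 2 became 4 with DESeq2 and with GC offsets on 12 libraries, 6 with GC offsets on 11, 1 when only the compared groups were fitted, 6 when these were fitted without TRB T3 replicate 2, 5 with the block on 11, and 1 to 4 on leaving out 1 library. For the vectors in vehicle 0 became 1 when only the compared groups were fitted. For the vectors with T3 2 became 4 with DESeq2, 5 with GC offsets on 12 and on 11 libraries and with the block on 11, 1 when only the compared groups were fitted, and 1 to 4 on leaving out 1 library. For the interaction 0 became 3 with DESeq2, 2 and 5 with GC offsets on 12 and 11 libraries, 5 with the block on 11, and 0 to 4 on leaving out 1 library. Over all genes the counts past the threshold ran, beside those of the 12-library fit, from 10 to 2177 (against 33) for T3 in EV cells, 634 to 7352 (against 2128) for T3 in TRB cells, 0 to 1563 (against 3) for the vectors in vehicle, 32 to 4941 (against 964) for the vectors with T3 and 136 to 4087 (against 374) for the interaction. TGFB3 kept both of its 12-library calls in each alternative run.

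The labels do not say that a replicate number marks a shared culture or day, and same-numbered libraries had correlated deviations of -0.15 to 0.73, with 7 of 12 closest to their own number. In no comparison did each pair exceed 0.1, so the numbers were not used as pairs. Under the replicate block on 12 libraries the direction turned for TGFB2 with T3 in EV cells (-0.0059) and for TGFB1 in vehicle (0.015), and SKIL passed with T3 in TRB cells (adjusted p 0.0318) and against EV cells with T3 (adjusted p 0.0336). The replicate block on 11 libraries added SKIL in EV cells (-0.71, adjusted p 0.0312), in TRB cells (adjusted p 0.00471) and against EV cells with T3 (adjusted p 0.00339), and the TGFB1 interaction (adjusted p 0.0441).

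Members changed sign elsewhere too, and not all of these values were near 0 in the 12-library fit. The interaction there was 0.76 for SMAD4 and 0.59 for SMAD2, neither of which passed. With DESeq2's size factors in edgeR, T3 in EV cells gave SMAD7 0.033 and the vectors in vehicle gave TGFBR2 0.0093. With DESeq2, T3 in EV cells gave SMAD7 0.030 and the vectors in vehicle gave TGFBR2 0.0078. Without a count filter, T3 in EV cells gave TGFB2 -0.0025. With GC offsets on 12 libraries, T3 in EV cells gave TGFB1 -0.18 and T3 in TRB cells gave TGFB2 -0.42, SMAD2 -0.41, SMAD4 -0.24 and SMAD7 0.17. The vectors in vehicle gave TGFB2 0.22, TGFBR2 0.015 and SMAD4 0.078 and the vectors with T3 gave TGFB2 -0.57, TGFBR2 -0.050, SMAD2 -0.29, SMAD4 -0.034 and SMAD7 0.48. The interaction gave TGFB2 -0.79, TGFBR2 -0.065, SMAD2 -0.29, SMAD4 -0.11 and SMAD7 0.42. With GC offsets on 11 libraries, T3 in EV cells gave TGFB1 -0.19 and T3 in TRB cells gave TGFB2 -0.10, SMAD2 -0.23 and SMAD4 -0.17. The vectors in vehicle gave TGFB2 0.20 and SMAD4 0.052 and the vectors with T3 gave TGFB2 -0.28, SMAD2 -0.11 and SMAD7 0.18. The interaction gave TGFB2 -0.48, SMAD2 -0.096, SMAD4 -0.041 and SMAD7 0.15. With the compared groups alone without TRB T3 replicate 2, T3 in TRB cells gave TGFB2 -0.073, SMAD2 -0.18 and SMAD4 -0.11 and the vectors with T3 gave TGFB2 -0.28, SMAD2 -0.072 and SMAD7 0.18. Under the replicate block on 11 libraries, T3 in TRB cells gave TGFB2 -0.012, SMAD2 -0.090 and SMAD4 -0.018 and the vectors with T3 gave TGFB2 -0.085 and SMAD7 0.23. The interaction gave TGFB2 -0.063. Of these values only SMAD2 with GC offsets on 11 libraries, for T3 in TRB cells, passed. On leaving out 1 library, each of the following crossed 0. T3 in EV cells ran for TGFB1 from -0.035 to 0.34, TGFB2 from -0.26 to 0.28 and SMAD7 from -0.10 to 0.21. T3 in TRB cells ran for TGFB2 from -0.085 to 0.44, SMAD2 from -0.18 to 0.38, SMAD4 from -0.11 to 0.63 and SMAD7 from -0.45 to 0.0018. The vectors in vehicle ran for TGFB1 from -0.15 to 0.12, TGFB2 from -0.095 to 0.12, TGFBR2 from -0.025 to 0.036 and SMAD4 from -0.24 to 0.064. The vectors with T3 ran for TGFB2 from -0.22 to 0.42, SMAD2 from -0.0062 to 0.54 and SMAD7 from -0.24 to 0.26. The interaction ran for TGFB2 from -0.18 to 0.44 and SMAD7 from -0.49 to 0.023. Depth limits TGFB3 most, which had 1 to 22 counts outside TRB T3.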
